A study of Homo sapiens with 2 samples.

Results

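KLHL14, RASGRF2, GRM8, COCH, PELI2, APBA2, GABRA2 and NOVA1 are 8 protein-coding genes that were close to silent in parental BEAS-2B cells and carried at least 100 reads in BEAS-2B cells overexpressing TRPV3. They were chosen by their counts: at most 10 raw counts in the parental library and at least 100 in the TRPV3-OE library. Of the 58051 genes in the files, 16 met both limits, and these 8 are the ones described. Why these 8 of the 16 were taken is not given in the sources used here. The counts that chose them are therefore given as a description and were not tested.

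The study measured RNA by sequencing in BEAS-2B, a line of immortalised epithelial cells from human bronchus, and in BEAS-2B cells overexpressing TRPV3, a calcium-permeable cation channel. There was 1 library from the parental cells (genotype WT, passage 20 to 30) and 1 from the overexpressing cells (genotype TRPV3-OE, passage 4 to 8). Both lines were cultured in LHC-9 medium on a collagen and fibronectin coat, seeded at the same density in 6-well plates, and frozen once confluent. How the TRPV3-OE line was made, and whether it is a clone or a pool, is not given in the sources used here. Passage range and genotype moved together, so their parts in any difference cannot be told apart. Neither group has a replicate, so differences between the libraries could not be set against a spread between samples, and no test of them was made.

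The 8 genes belong to different families. GRM8 encodes a metabotropic glutamate receptor that couples to inhibitory G proteins, and GABRA2 encodes an alpha subunit of the GABA-A receptor, a chloride channel opened by the inhibitory transmitter GABA. RASGRF2 encodes a calcium-responsive exchange factor that loads Ras and Rac with GTP. PELI2 encodes a Pellino ubiquitin ligase that acts with the IRAK kinases below interleukin and Toll-like receptors, and KLHL14 encodes a BTB-kelch protein of the family of substrate adaptors of cullin-3 ubiquitin ligases. APBA2 encodes an adaptor that binds the amyloid precursor protein. NOVA1 encodes an RNA-binding splicing regulator best known in neurons, and COCH encodes cochlin, a secreted matrix protein best known in the inner ear.

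The libraries had similar depth, with 17450658 parental and 17477953 TRPV3-OE counts, so that 1 count equals 0.0584 and 0.0562 CPM (counts scaled to library size) after TMM scaling. TRPV3 itself had 26 counts in the parental and 54077 in the TRPV3-OE library, a log2 ratio of 10.97 (95% interval 10.41 to 11.58), in the direction of the label. Of 8 airway epithelial markers, 7 had at least 100 counts summed over the libraries, the limit for calling a gene measured. The whole list summed to 3898 CPM in parental cells and to 4184 CPM in TRPV3-OE cells. EPCAM, CDH1, KRT5 and KRT19 had at least 3116 counts in each library, and NKX2-1, a lung lineage transcription factor, had 0 in both. Intervals here and below are exact and cover counting error only, since each group has 1 library. They treat reads as independent, and are too narrow where several reads come from 1 molecule.

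**Figure D1:**
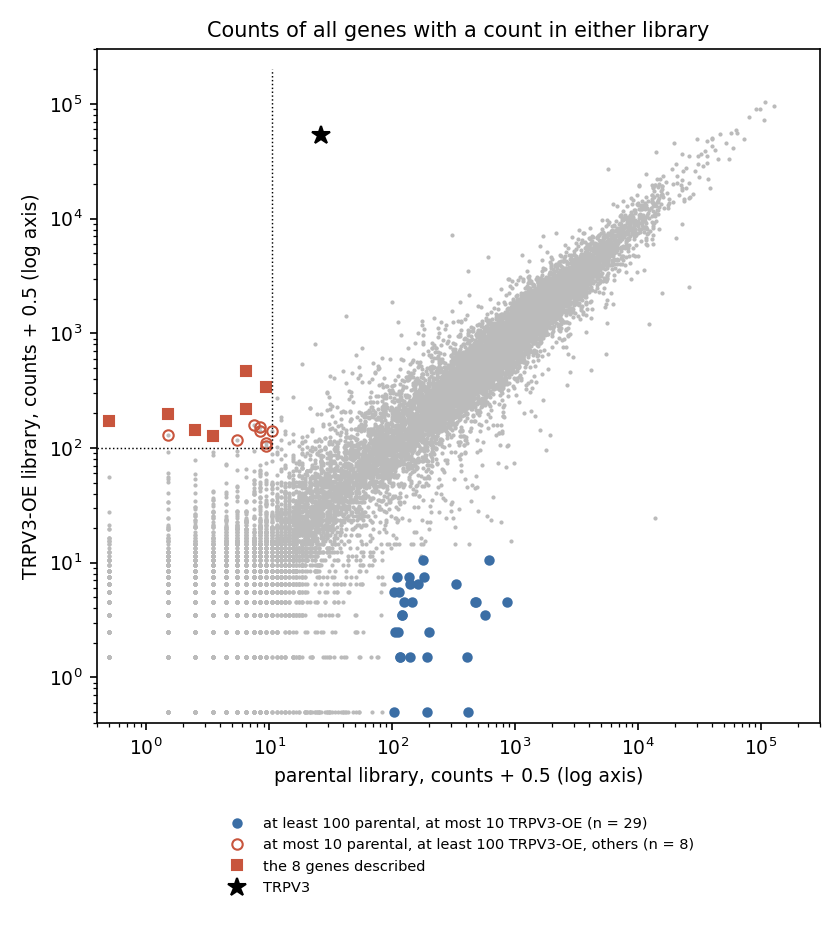
Counts per gene in the parental (x axis) and TRPV3-OE (y axis) library, both plus 0.5 on log axes, for every gene with a count in either library. Filled squares are the 8 genes described, open circles the 8 other genes within the same limits (dotted lines), blue points the 29 genes within the reversed limits, and the star TRPV3. The 8 genes lie at 0 to 9 parental and 127 to 473 TRPV3-OE counts.

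The 8 genes together had 31 counts in the parental and 1843 in the TRPV3-OE library. Genes within the 2 limits made up 0.0276% of all genes in the files, 0.036% of the genes with at most 10 parental counts, and 0.206% of the 7755 protein-coding genes with at most 10 parental counts. All 16 are protein-coding. With the libraries exchanged, 29 genes had at least 100 parental and at most 10 TRPV3-OE counts, or 0.0655% of those with at most 10 TRPV3-OE counts. Since the limits chose the genes, nothing is read from these shares about them.

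**Figure D2:**
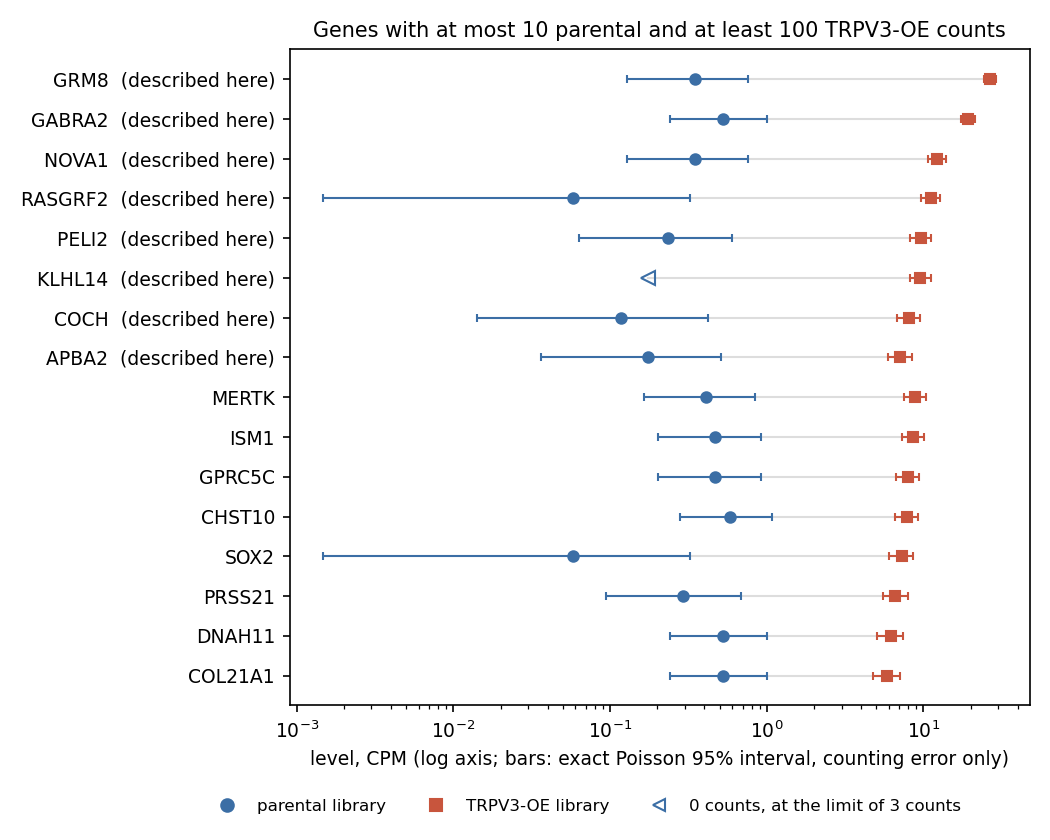
Levels in CPM on a log axis of the 16 genes with at most 10 parental and at least 100 TRPV3-OE counts, in the parental (circles) and the TRPV3-OE library (squares), with exact Poisson 95% intervals. The open triangle marks KLHL14, with 0 parental counts, at the limit of 3 counts. The highest TRPV3-OE level of the 16 is that of GRM8, 26.6 CPM, and the lowest of the 8 genes described is that of APBA2, 7.13 CPM.

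Per length, the 8 genes all lay below the median of measured protein-coding genes in the TRPV3-OE library. Their levels ran from 3.90 TPM (level per transcript length, scaled to the library) for APBA2 to 15.5 TPM for GRM8, with a median of 5.91 TPM, against a median of 29.9 TPM over the 10925 measured protein-coding genes. GRM8 stood at percentile 30.9 of those genes, COCH at 17.1 and KLHL14 at 14.7. GABRA2 stood at percentile 12 and PELI2 at 11.3, and NOVA1, RASGRF2 and APBA2 lay between 6.65 and 8.40. In RNA from whole cultures, a low level in every cell and a higher level in few cells cannot be told apart.

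Promoter sequences are shown because the 8 genes have no family in common and the region around the start is where a shared feature would be looked for. RefSeq promoter windows (GRCh38.p14, 250 bases before to 50 after the start) were found for 7 of the 8 genes. GRM8, APBA2, GABRA2 and NOVA1 had several, and the window nearest to the gene's 5′ end was kept. The windows of GRM8, PELI2, APBA2 and GABRA2 lie wholly inside the gene as annotated. That of GABRA2, at 46390251 to 46390550, is far from the gene's 5′ end at 46475230. All 7 were rich in the dinucleotide CG, with 45 in PELI2, 41 in RASGRF2, 40 in COCH, 38 in APBA2, 34 in GRM8, 31 in NOVA1 and 30 in GABRA2. The median was 38, against 27 over the 9018 measured protein-coding genes with a window and 14 over all 35116 windows. Of those genes 41.0% had 30 or more, and of all windows 22.4%. The limit of 30 is the lowest count of the 7, so all 7 reach it by construction. The share of G and C was 70.0% to 83.7% in the 7 windows. The bases before the start that also precede the gene's first annotated exon in the files are printed for the 3 genes that have them, 5′ to 3′ on the gene's strand with each CG in capitals. They lie at chr5:80960113-80960362 (plus strand, RASGRF2), chr14:30874309-30874513 (plus strand, COCH) and chr14:26598034-26598283 (minus strand, NOVA1).
RASGRF2: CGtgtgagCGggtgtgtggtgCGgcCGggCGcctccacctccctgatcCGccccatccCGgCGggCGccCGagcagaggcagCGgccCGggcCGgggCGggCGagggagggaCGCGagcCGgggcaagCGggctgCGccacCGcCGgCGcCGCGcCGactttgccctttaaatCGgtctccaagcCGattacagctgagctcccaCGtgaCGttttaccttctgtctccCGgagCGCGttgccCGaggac
COCH: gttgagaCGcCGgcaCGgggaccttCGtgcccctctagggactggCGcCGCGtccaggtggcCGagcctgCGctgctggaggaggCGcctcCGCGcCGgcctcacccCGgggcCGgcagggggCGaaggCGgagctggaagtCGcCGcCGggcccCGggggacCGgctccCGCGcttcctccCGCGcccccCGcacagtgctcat
NOVA1: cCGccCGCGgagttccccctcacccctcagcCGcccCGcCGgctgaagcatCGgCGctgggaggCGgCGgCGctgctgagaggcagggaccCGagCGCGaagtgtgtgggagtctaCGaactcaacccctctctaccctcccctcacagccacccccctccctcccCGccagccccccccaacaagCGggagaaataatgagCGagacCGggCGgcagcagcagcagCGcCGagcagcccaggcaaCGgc
The printed bases hold 34 CG in RASGRF2, 27 in COCH and 23 in NOVA1.

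Motifs were searched on both strands of the same 300-base windows. The GC box GGGCGG was present in 6 of the 7 windows, all but COCH, and in 45.0% of all windows. The TATA box TATAAA was present in COCH alone of the 7, and in 11.5% of all windows. CAGGTG, the E-box bound by ZEB factors among others, was present in COCH and PELI2, and in 20.6% of all windows. In COCH it starts 196 bases before the start, within the printed run. CCAAT was present in GRM8 (34.6% of all windows) and GGAAA, the core of NFAT sites, in APBA2 (61.2%). The full cAMP response element TGACGTCA (1.85% of all windows) and the AP-1 site TGANTCA (7.71%) were in none of the 7. The GC box holds 1 CG and the cAMP response element holds 1, so their presence is not independent of the CG count.

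GRM8 (ENSG00000179603, chromosome 7, 126438598 to 127253294, minus strand) had 6 parental and 473 TRPV3-OE counts, the highest TRPV3-OE count of the 8. Its level was 0.350 CPM (0.129 to 0.762) in the parental and 26.6 CPM (24.2 to 29.1) in the TRPV3-OE library, a ratio of 75.8 (34.6 to 208). Of the related metabotropic glutamate receptor genes, GRM2 to GRM7 had 0 counts in both libraries. Of 14 listed signalling partners, 8 were measured and 0 were called, where a call is a ratio of at least 2-fold with its interval wholly on that side of 1. Among all measured genes, 5.31% were called higher and 5.35% lower. GNAI2, an inhibitory G protein alpha subunit, went from 153 to 83.9 TPM (log2 ratio −0.93). The calcium-stimulated adenylate cyclase gene ADCY1 had 2 parental and 30 TRPV3-OE counts, too few to be measured.

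GABRA2 (ENSG00000151834, chromosome 4, 46248427 to 46475230, minus strand) had 9 parental and 343 TRPV3-OE counts. Its level was 0.525 CPM (0.240 to 0.998) in the parental and 19.3 CPM (17.3 to 21.4) in the TRPV3-OE library, a ratio of 36.7 (19.1 to 80.8). Of the 18 other GABA-A receptor subunit genes, 14 had 0 counts in both libraries, among them every other alpha and every beta and gamma subunit. GABRG1, GABRA4 and GABRB1, which lie beside GABRA2 in the chromosome 4 cluster, are among those 14. The only measured relative was GABRE, the epsilon subunit, with 227 parental and 737 TRPV3-OE counts, from 4.96 to 16.2 TPM (ratio 3.12, 2.69 to 3.64). GABRP had 1 and 3 counts, GABRR2 had 2 and 2, and GABRD had 0 and 1. Of 12 genes of GABA synthesis, transport and receptor clustering, 6 were measured and 0 called. The shares called over all measured genes were 5.31% higher and 5.35% lower. GAD2 and SLC32A1, which make GABA and load it into vesicles in neurons, had 0 counts in both libraries.

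RASGRF2 (ENSG00000113319, chromosome 5, 80960672 to 81230156, plus strand) had 1 parental and 198 TRPV3-OE counts. Its level was 0.0584 CPM (0.00148 to 0.325) in the parental and 11.1 CPM (9.62 to 12.8) in the TRPV3-OE library. The ratio was 190.4, with an interval of 33.8 to 7559 that is wide because it rests on 1 parental count. Its closest relative RASGRF1 had 51 parental and 23 TRPV3-OE counts, the opposite direction, though the sum is below the limit for measured genes. Of 22 listed genes with a RasGEF domain, 12 were measured, 3 were called higher and 0 lower. The shares over all measured genes were 5.31% higher and 5.35% lower, and nothing is read from these few calls. The median log2 ratio of the 12 was 0.37, against −0.03 over all measured genes. RALGPS1 went from 27 to 155 counts (ratio 5.52), RALGDS from 530 to 1697 (ratio 3.08) and RAPGEF5 from 102 to 308 (ratio 2.90). RALGPS1 and RALGDS load Ral, and RAPGEF5 loads Rap. RGL3 had 4 and 72 counts, again too few to be measured. Of 10 listed partners, 9 were measured, with a median log2 ratio of −0.56. The Ras relative RRAS was called lower, from 785 to 380 counts (2.15-fold, 1.90 to 2.43). RAC1 went from 472 to 331 TPM, under 2-fold.

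PELI2 (ENSG00000139946, chromosome 14, 56117814 to 56301526, plus strand) had 4 parental and 171 TRPV3-OE counts, with a ratio of 41.1 (15.8 to 153). Its TRPV3-OE level was 9.60 CPM (8.22 to 11.2), and 0.234 CPM in the parental library. Neither of the other Pellino genes was called. PELI1 had 312 parental and 164 TRPV3-OE counts, a log2 ratio of −0.98 (−1.27 to −0.71), and PELI3 had 138 and 139 counts. In TPM, the parental library held 15.9 of PELI1, 7.38 of PELI3 and 0.134 of PELI2, and the TRPV3-OE library held 8.40, 7.48 and 5.75. All 10 listed genes of IRAK and TRAF6 signalling were measured, and 1 was called higher, beside 5.31% of all measured genes. It was IRAK3, an inhibitory member of the IRAK family, with 59 and 143 counts (ratio 2.33, 1.71 to 3.21). IRAK1 stood at 241 and 275 TPM.

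KLHL14 (ENSG00000197705, chromosome 18, 32672671 to 32773062, minus strand) had 0 parental and 170 TRPV3-OE counts. Its TRPV3-OE level was 9.55 CPM (8.17 to 11.1). With 3 counts, or 0.175 CPM, put in place of the parental 0, this level was 54.5-fold higher. The lower limit of the exact interval of the ratio, 43.8, does not depend on that choice. It is the only one of the 8 with no parental count. Of the 40 listed kelch relatives, 28 were measured, with a median log2 ratio of 0.09. Of these 28, 1 was called higher and 0 lower, beside 5.31% and 5.35% of all measured genes. The relative called higher was KLHL26, with 69 parental and 185 TRPV3-OE counts (ratio 2.58, 1.95 to 3.45). ENC1, the relative with the highest TRPV3-OE level per length, stood at 59.5 and 94.3 TPM. The cullin-3 gene CUL3 had a log2 ratio of 0.17 and TOR1A, encoding torsin A, a reported binding partner of the KLHL14 protein, 0.37. None of the 8 listed partners was called.

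APBA2 (ENSG00000034053, chromosome 15, 28884483 to 29118315, plus strand) had 3 parental and 127 TRPV3-OE counts, the lowest TRPV3-OE count of the 8. Its level was 0.175 CPM in the parental and 7.13 CPM (5.95 to 8.49) in the TRPV3-OE library, a ratio of 40.7 (13.6 to 200.1). Its relatives APBA1, with 49 and 84 counts, and APBA3, with 376 and 298 counts, had log2 ratios of 0.72 and −0.39, and neither was called. Per length, APBA2 went from 0.0917 to 3.90 TPM, past APBA1 (0.903 and 1.56 TPM) but below APBA3 (14.2 and 11.3 TPM). Of 14 listed partners, 9 were measured, with a median log2 ratio of 0.00. Of these 9, 0 were called higher and 1 lower, beside 5.31% and 5.35% of all measured genes. The amyloid precursor gene APP stood at 326 and 446 TPM, and its relative APLP1 was called lower, with 89 and 22 counts (4.21-fold, 2.61 to 7.05).

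NOVA1 (ENSG00000139910, chromosome 14, 26443093 to 26597754, minus strand) had 6 parental and 218 TRPV3-OE counts. Its level was 0.350 CPM in the parental and 12.2 CPM (10.7 to 14) in the TRPV3-OE library, a ratio of 34.9 (15.8 to 96.3). Its close relative NOVA2 had 0 counts in both libraries. Among the more distant KH-domain relatives, PCBP1 stood at 713 and 643 TPM, far above NOVA1 at 4.58 TPM in the TRPV3-OE library, and PCBP4 was called lower, with 138 and 59 counts (2.43-fold, 1.78 to 3.36). Of 20 splicing regulators, 12 were measured, 0 were called and the median log2 ratio was −0.25. The shares called over all measured genes were 5.31% higher and 5.35% lower. RBFOX1, RBFOX3, ELAVL3, ELAVL4, SRRM4 and KHDRBS2, which act mainly in neurons or muscle, had 0 counts in both libraries. ELAVL2, another neuronal regulator of the list, had 764 and 601 counts (log2 ratio −0.40). PTBP1, a repressor of neuronal exons, stood at 375 and 311 TPM, and its relative PTBP2 at 5.89 and 9.44 TPM.

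COCH (ENSG00000100473, chromosome 14, 30874514 to 30895065, plus strand) had 2 parental and 143 TRPV3-OE counts. Its level was 0.117 CPM in the parental and 8.03 CPM (6.77 to 9.46) in the TRPV3-OE library, a ratio of 68.8 (18.7 to 573). The upper bound is loose because it rests on 2 parental counts. Of 9 genes with a related LCCL or von Willebrand factor A domain, 3 were measured and 0 called. The shares called over all measured genes were 5.31% higher and 5.35% lower. Vitrin (VIT), the closest in domain order, had 0 counts in both libraries. DCBLD2 was the most abundant per length, at 242 and 268 TPM, and MATN3, a cartilage matrix gene, had 186 and 107 counts (log2 ratio −0.85). Of 10 inner ear genes, the gap junction gene GJB2 alone was measured, with 87 and 175 counts (log2 ratio 0.95), and it was not called.

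Over all 8 families, 52 of 106 listed paralogs were measured, 5 were called higher and 1 lower, beside 5.31% and 5.35% of all measured genes. Their log2 ratios had a median of 0.07 and ran from −1.28 to 2.47. The 8 genes, which were chosen for high ratios as the paralogs were not, ran from 5.13 to 7.57. Their median was 5.56 with KLHL14 taken at 3 parental counts. Of the 5 paralogs called higher, 3 are RasGEF genes. Without the RasGEF relatives other than RASGRF1, the count is 2, GABRE and KLHL26, which was computed after the data were seen.

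**Figure D3:**
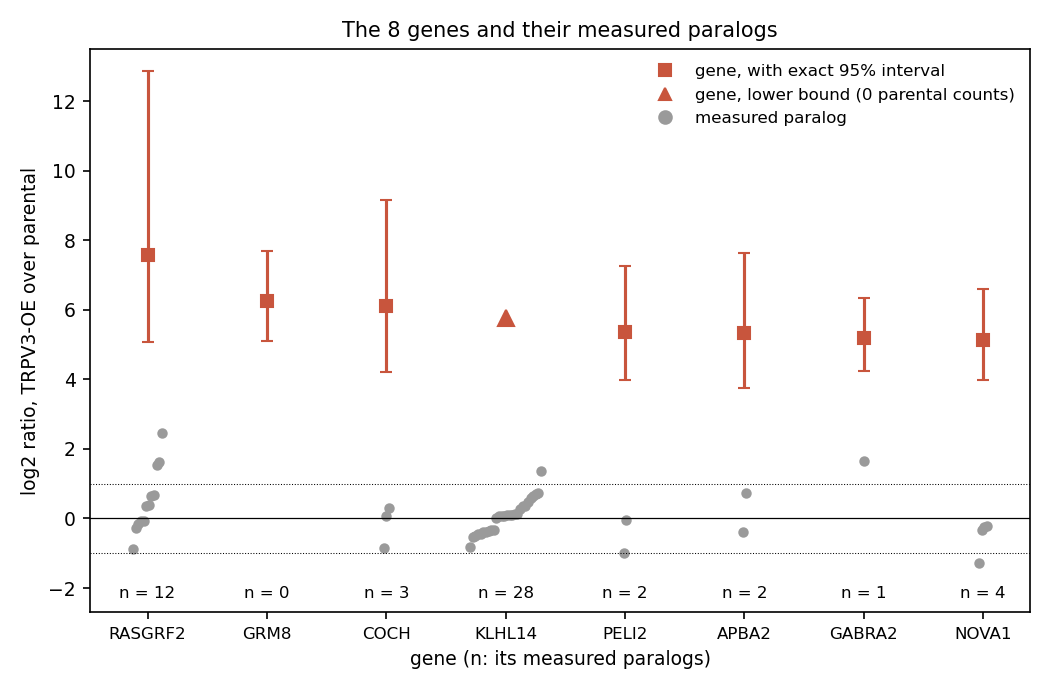
Log2 ratio, TRPV3-OE over parental, of each of the 8 genes (squares with exact 95% intervals) and of its measured paralogs (grey points, number under each column). The triangle is KLHL14 with 3 counts in place of its 0 parental counts. Dotted lines mark 2-fold in either direction. The paralogs lie between −1.28 and 2.47, and GRM8 has no measured paralog. The 8 genes were chosen by the counts behind their ratios and the paralogs were not.

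Neighbouring genes on the chromosome were mostly silent or little different. Within 1 Mb of either end of the 8 genes lie 284 other genes, of which 188 had no count in either library. Of the 42 measured, 3 were called higher and 0 lower, beside 5.31% and 5.35% of all measured genes. The 42 had a median log2 ratio of 0.26 (−0.37 to 2.61), against −0.03 over all measured genes. Near KLHL14, the gene GAREM1, an adaptor of growth factor signalling 202 kb downstream, had 121 and 345 counts (ratio 2.74, 2.22 to 3.40). Near COCH, the kinase gene PRKD1, 683 kb upstream, had 20 and 127 counts (ratio 6.11, 3.79 to 10.3). Near GRM8, the unnamed gene ENSG00000280347 had 29 and 82 counts (ratio 2.72, 1.76 to 4.31), but it lies inside ZNF800 on the same strand, so its reads are uncertain.

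**Figure D4:**
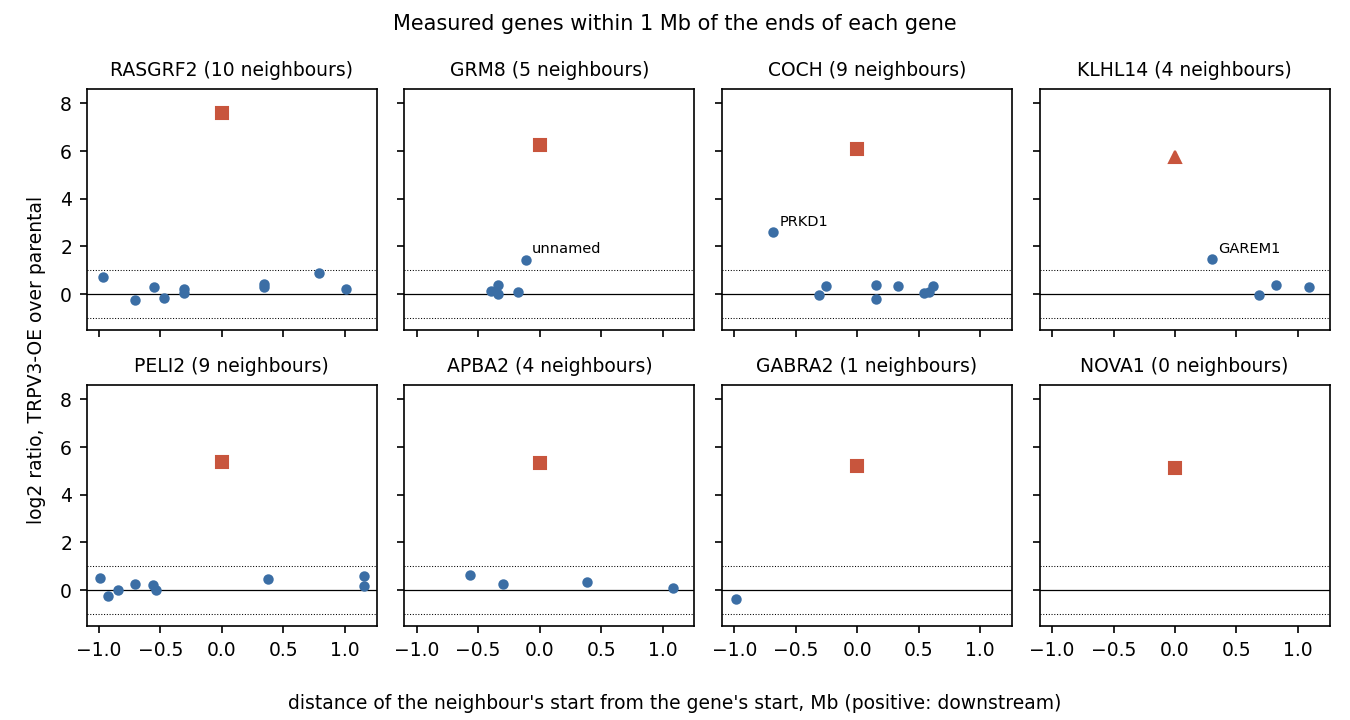
Log2 ratio, TRPV3-OE over parental, of the measured genes within 1 Mb of the ends of each of the 8 genes (circles), against the distance between gene starts in Mb, positive in the downstream direction. The gene itself is the square at distance 0, or the triangle for KLHL14 with 3 counts in place of its 0 parental counts. Only the 3 labelled neighbours pass 2-fold (dotted lines), and NOVA1 has no measured neighbour.

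The nearest measured genes given here ran from a log2 ratio of −0.37 to 0.45, apart from GAREM1 beside KLHL14 at 1.46. RASGRF2 lies 84.2 kb from MSH3 upstream (763 and 811 counts, 0.03) and 71.4 kb from ZCCHC9 downstream (1040 and 1342 counts, 0.31). GRM8 lies 93.5 kb from ZNF800 upstream (0.09) and 1.51 Mb from POT1 downstream (0.25). COCH lies 139 kb from SCFD1 upstream (0.35) and 130 kb from AP4S1 downstream (−0.20). On both sides of these 3 genes, and of PELI2 and APBA2, the nearest measured genes were not called. The called neighbours PRKD1 of COCH and ENSG00000280347 of GRM8 lie farther away. PELI2 lies between KTN1, 416 kb upstream (0.22), and TMEM260, 187 kb downstream (0.45). APBA2 lies between the pseudogene HERC2P9, 199 kb upstream (0.27), and NSMCE3, 147 kb downstream (0.35). KLHL14 has GAREM1 202 kb downstream (1.46, 1.15 to 1.77), called higher, and MAPRE2 as its nearest measured upstream gene, 2.20 Mb away (0.27).

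GABRA2 and NOVA1 lie in regions with little measured transcription. For GABRA2, 10 of 15 genes within 1 Mb had no count, and the only measured one was COMMD8, 976 kb upstream (698 and 561 counts, −0.37). GNPDA2 is its nearest measured gene downstream, 1.52 Mb away (−0.14). For NOVA1, 11 of 12 genes within 1 Mb had no count and none was measured. Its nearest measured gene downstream was SDR39U1, 2000.2 kb away (0.12). Over the 50 nearest measured genes on the chromosome, the local median log2 ratio was 0.01 to 0.31 for the 8 genes. The median over all measured genes was −0.03. Subtracting the local median, which was chosen after the data were seen, left 5.03 for NOVA1 to 7.29 for RASGRF2.

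Overlapping genes took few reads. Of 16 genes that overlap one of the 8, 14 had at most 3 counts summed over both libraries. RASGRF2-AS1, GRM8-AS1 and MIR592, which lies in GRM8, had 0 in both. The antisense gene ENSG00000228835 over KLHL14 had 0 and 2 counts, and the intronic ENSG00000262119 in NOVA1 had 0 and 3. The exceptions were CKMT2-AS1, which overlaps RASGRF2 (118 and 163 counts), and STRN3, which overlaps COCH (932 and 1255 counts). Both lie on the opposite strand, and the counting used strand. In transcript sequence, 5 of the 8 genes shared no stretch of 50 bases with another gene in GENCODE 29. GRM8 shared 149 of 6680 such stretches (2.23%), APBA2 29 (0.415%) and GABRA2 5 (0.0406%).

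Most of the 8 are long genes. Their genomic spans had a median of 205 kb (20.6 to 815 kb), against 33.6 kb over measured protein-coding genes and 17.4 kb over protein-coding genes with at most 10 parental counts. All but COCH span over 100 kb, or 7 of 8. The share was 19.2% of measured protein-coding genes, 3 of the 8 other genes within the same count limits and 14 of the 29 within the reversed limits. NOVA1, COCH and PELI2 lie on chromosome 14, which held 3 of the 16 genes within the limits, 0 of the 29 within the reversed limits and 3.34% of all measured genes. They lie megabases apart, and the 383 measured genes of chromosome 14 had a median log2 ratio of −0.05.

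Several of the 8 genes are best known in neurons, and the REST complex, the Polycomb complexes and DNA methylation are known to keep tissue-restricted genes silent in other cells. The gene for REST, which silences neuronal genes outside the nervous system, had 1137 parental and 1134 TRPV3-OE counts (log2 ratio −0.06, −0.18 to 0.06). Of 13 genes of its complex, 12 were measured, with a median of −0.02. The corepressor gene RCOR1 was called lower, with 2274 and 1072 counts (2.21-fold, 2.05 to 2.37), and 0 were called higher. All 19 Polycomb genes were measured, with a median of −0.25. JARID2, a cofactor of the methylating complex, was called lower with 1202 and 509 counts (2.46-fold, 2.21 to 2.73), as was CBX2, a reader subunit, with 322 and 153 counts (2.19-fold, 1.80 to 2.67). CBX7, another reader subunit, was called higher with 52 and 150 counts (2.77-fold, 2.01 to 3.88), while the methyltransferase gene EZH2 stood at a log2 ratio of 0.07. Of 8 DNA methylation genes, 7 were measured and 0 called, with DNMT1 at 0.06. Among all measured genes, 5.31% were called higher and 5.35% lower, and nothing is read from the few calls in these 3 lists. No chromatin, methylation or binding data were analysed here, and the part of these genes in the levels of the 8 was not tested.

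**Figure D5:**
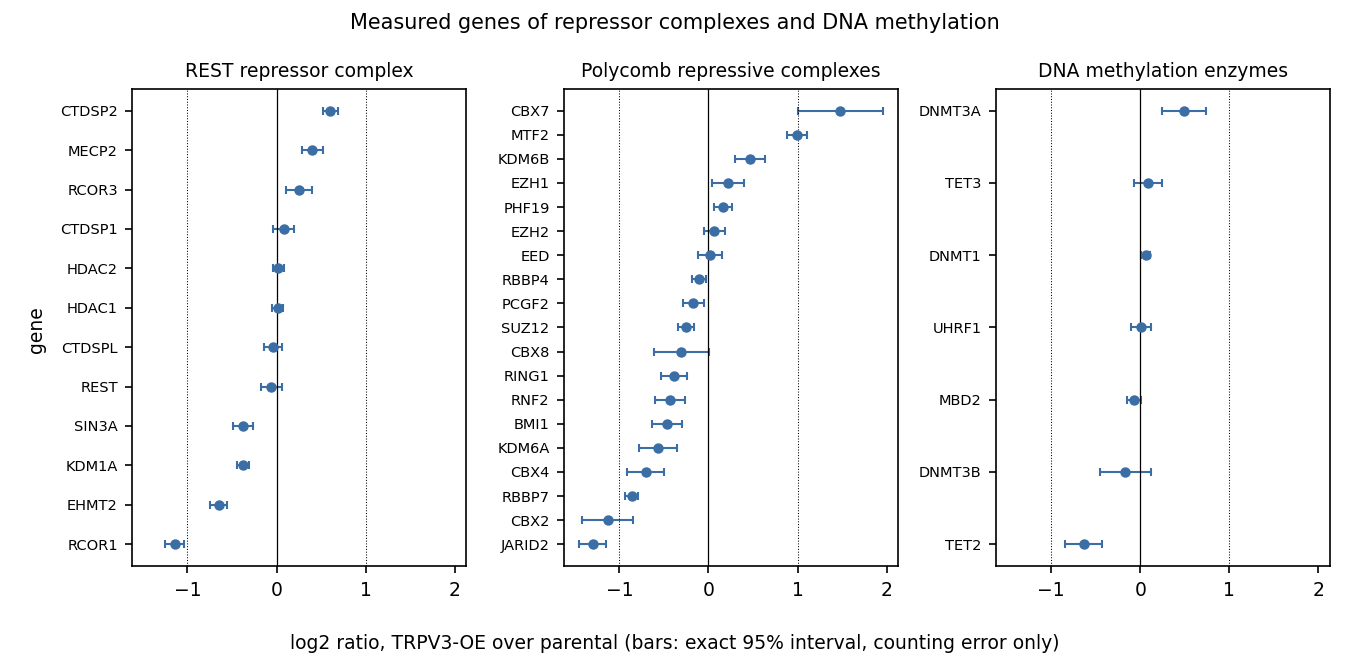
Log2 ratio, TRPV3-OE over parental, of the measured genes of the REST complex (12), the Polycomb complexes (19) and DNA methylation (7), with exact 95% intervals. Dotted lines mark 2-fold in either direction. RCOR1, JARID2 and CBX2 lie below −1 and CBX7 above 1, and REST and EZH2 lie near 0.

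Markers of other cell types were examined beside the 8 genes. Among all measured genes, 5.31% were called higher and 5.35% lower, and the marker lists held few measured genes. Of 16 neuron markers, 2 were measured and the list summed to 23.9 CPM in parental and 54.6 CPM in TRPV3-OE cells. SYT1, a synaptic vesicle calcium sensor, was called higher with 91 and 347 counts (3.67-fold, 2.90 to 4.67), and MAP2 had 298 and 575 counts (log2 ratio 0.89). INA, a neuronal intermediate filament gene, had 3 and 35 counts (11.2-fold, 3.54 to 57.0), too few to be measured. The 9 markers of the list RBFOX3, SNAP25, STMN2, GAP43, NEFL, NEFM, DCX, ELAVL3 and ELAVL4 had 0 counts in both libraries. Of 9 neuroendocrine markers, 3 were measured and the list summed to 72.2 and 117 CPM. CHGB was called higher with 17 and 103 counts (5.83-fold, 3.47 to 10.4) and UCHL1 had 1007 and 1850 counts (log2 ratio 0.82). ENO2 had 211 and 137 counts (log2 ratio −0.68), and INSM1, CALCA, GRP and NEUROD1 had 0 in both. No immune cell marker had more than 2 counts in either library. Of 6 fibroblast markers COL1A1 alone was measured (410 and 285 counts), and of 4 endothelial markers CDH5 alone (268 and 35 counts, 7.96-fold lower, 5.58 to 11.7).

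The genes most like the 8, by meeting the same 2 limits, were MERTK, ISM1, GPRC5C, CHST10, SOX2, PRSS21, DNAH11 and COL21A1. Their TRPV3-OE counts ran from 104 (COL21A1) to 157 (MERTK), and their median log2 ratio was 4.14, against 5.56 for the 8. Both medians rest on the counts that chose the genes, so nothing is read from their difference. SOX2, a transcription factor of airway and neural progenitors, had 1 and 129 counts (log2 ratio 6.96). It is the only one of these genes with a ratio above any of the 8, of which RASGRF2 alone stands higher (7.57). PRSS21 followed with 5 and 118 counts (log2 ratio 4.50). Just past the parental limit lay TMEM255A (11 and 274 counts) and PLEKHB1 (11 and 102 counts). Just under the TRPV3-OE limit lay CYP4X1 (7 and 93 counts), ZNF704 (5 and 93 counts), IRF8 (1 and 92 counts) and CGNL1 (3 and 91 counts). The nearest of the 8 to the limits were GABRA2 at 9 parental counts and APBA2 at 127 TRPV3-OE counts.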

How the data were processed

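RNA was measured in 1 parental and 1 TRPV3-OE library, grouped by the genotype label. The deposited unit is the raw count per gene. The authors counted with featureCounts 1.5.0-p3, set to the opposite strand, and Ensembl 87 gene models (GRCh38.p7), as stated per the file headers. The submitters' processing notes also name STAR and DESeq2 with no version. The headers show no option for reads with several alignments or over several genes, so such reads were left out by default. The labels and headers name no kit and no length of the reads.

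Scaling used the TMM factors 0.981 and 1.02, computed by edgeR 4.0.16 under R 4.3.3, without a model fit. Levels carry exact Poisson 95% intervals. Ratios, TRPV3-OE over parental, carry exact conditional binomial (Clopper-Pearson) 95% intervals. For 0 parental counts the ratio was computed with 3 counts in place of 0, and its lower limit is that of the interval. A gene counts as measured from 100 summed counts upward (11466 genes). TPM was computed from counts and the files' exon lengths. The interval and call calculation was tested on simulated counts.

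Coordinates are those of the files, and symbols were matched for 56948 of 58051 IDs. Biotypes and transcripts came from GENCODE 29, and promoters from RefSeq (GRCh38.p14). The promoter comparison with the other genes within the count limits was void, since too few of them (6 of 8) had a window, as was the case for the reversed limits (21 of 29) and for protein-coding genes with at most 10 parental counts (5465 of 7755). A planned comparison of protein sequences was not made. The 8 genes and all lists were chosen with earlier results of these data known. Named were the 8 genes and TRPV3, paralogs, neighbours, partners, regulators and markers called at 2-fold, the most abundant listed genes, the nearest measured and the overlapping genes, and genes at the limits. Some genes that this rule selects are not reported here. Other listed genes named, such as PELI1, RASGRF1, RGL3, ADCY1 and those at 0, were chosen after their values were seen. Alternatives were other scalings (total counts, DESeq2 1.42.0 size factors, upper quartile), 5 added counts, other minimums, other count limits, other windows and a local median. Calculations used Python 3.11.15, pandas 2.3.3 and numpy 2.4.6, intervals scipy 1.17.1, and plots matplotlib 3.10.9.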

Additional observations from a re-analysis of the deposited data

How the results depend on the processing

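No replicate could be left out, with 1 library per group. No paired analysis was possible because there are no replicates to pair. The log2 ratios of the 8 genes and TRPV3 stayed within their intervals under total-count, DESeq2 and upper-quartile scaling, with a largest change of 0.0582. With 5 counts added to both libraries, all 8 log2 ratios were lower by construction: 5.39 for GRM8, 5.07 for KLHL14, 5.02 for RASGRF2, 4.58 for GABRA2, 4.35 for COCH, 4.29 for NOVA1, 4.23 for PELI2 and 3.99 for APBA2. Those of KLHL14 and RASGRF2 fell below their intervals, which start at 5.45 and 5.08. The smallest ratio is then that of APBA2 in place of NOVA1, and the order of the 8 genes by ratio depends on this choice. None of the values computed changed direction, and 27 of 43 recomputed counts stayed within 1.5 times. The number of genes within the limits, 16, was 7 with at most 5 and 35 with at most 20 parental counts, and 53 with at least 50 and 3 with at least 200 TRPV3-OE counts. Of the 8 genes, GRM8, GABRA2 and NOVA1 have more than 5 parental counts, and only these have at least 200 TRPV3-OE counts. The reversed limits gave 48 in place of 29 genes with at most 20 TRPV3-OE counts. With minimums of 1 and 20 summed counts, 1314 and 1094 genes were called higher in place of 609, and 1121 and 942 lower in place of 614. Those minimums each gave 4 paralogs called lower in place of 1. Without the RasGEF relatives other than RASGRF1, 2 paralogs were called higher in place of 5. With a minimum of 1 count, 6 neighbours were called higher and 2 lower, and with a 2 Mb window 6 and 1, in place of 3 and 0. By construction, the other minimums, limits and windows change which genes enter each count. The depth of 17450658 parental counts leaves the parental levels of the 8 genes at 0 to 9 counts. On the log2 scale the upper limit of each ratio is therefore looser than the lower, and KLHL14 has no upper limit.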
